A study of Mus musculus with 6 samples.

Results

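Transcription factors that set leukocyte lineage were followed across the cell classes of the mouse lung. The 36 genes were taken as a named list, by their gene columns, and all 36 were present among the 20882 gene columns of the tables. They comprise 17 factors of the T and NK lineages, 3 of the B lineage, 6 of the IRF and AP-1 families, 7 of the myeloid and granulocyte lineages and 3 of dendritic and plasmacytoid cells. The cells were live CD45+ leukocytes, sorted from lungs of 6 to 8 week old mice that carry humanized PD-1, and PD-1 is the inhibitory receptor of activated T cells. One group had received an isotype control and the other a PD-1 agonist, and every mouse of both groups carried the humanized receptor. Per the labels, 3 samples of a group were mixed by cell hashing, with a stated 50000 cells per group, and RNA was counted by droplet-based single-cell sequencing on the 10x Genomics Chromium platform. What the humanized allele was and how the mice were challenged is not given in the sample labels.

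A lineage factor is a DNA-binding protein that switches on the genes of one cell fate, often while it holds those of another fate silent. Pax5 and Ebf1 act in this way in B cells, Foxp3 in regulatory T cells, T-bet (encoded by Tbx21) and Eomes in NK cells, and the C/EBP proteins together with PU.1 (encoded by Spi1) in neutrophils and macrophages. Most leukocytes carry several such factors at graded levels, and families such as the IRF and C/EBP proteins divide their members among lineages.

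The 3 tables of a treatment held many of the same cells. Any pair of them had 2373 to 2736 barcodes in common, or 35.9% to 42.5% of the shorter list, whereas tables of different treatments shared 3 to 13. The same barcode had similar profiles in both tables of a treatment, with a median cosine of 0.781 to 0.809, against 0.409 to 0.436 for different barcodes. Each treatment was therefore read as 1 pooled library. A comparison of isotype with agonist is a comparison of 2 libraries, with no replicate check and no p-value, and the intervals below are 95% intervals that cover counting error only. Taking each barcode once, the libraries held 10302 and 11259 cells after the filters, with median totals of 2536.5 and 2228 counts per cell. They fell into 20 classes with at least 50 cells in each library, named from marker genes that exclude the 36 factors. The names read as "-like" (B-like, NK-like), since they rest on expression alone, and 3 clusters are called by their leading genes or mixed markers. Levels are CPM, the summed counts of a class per 1000000 counts, scaled with TMM factors between the libraries. They are compared within a gene, across classes, and not between genes.

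The factors sorted the classes much as their names state, although none was used for the clustering. Of the 36, 34 had the same highest class in both libraries, and for 20 the interval of the first class lay above that of the second in both libraries. The exceptions to a shared first class were Maf, highest in gamma-delta T-like cells with isotype and in regulatory T-like cells with agonist, and Prdm1, highest in regulatory T-like cells with isotype and in NK-like cells with agonist. Regulatory T-like cells led for 5 factors (Foxp3, Ikzf2, Maf, Prdm1 and Batf), and CD4 T-like cells, gamma-delta T-like cells and neutrophil-like cells for 4 each. Since the classes were drawn from the same cells, these orders are descriptions and carry no test.

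**Figure D1:**
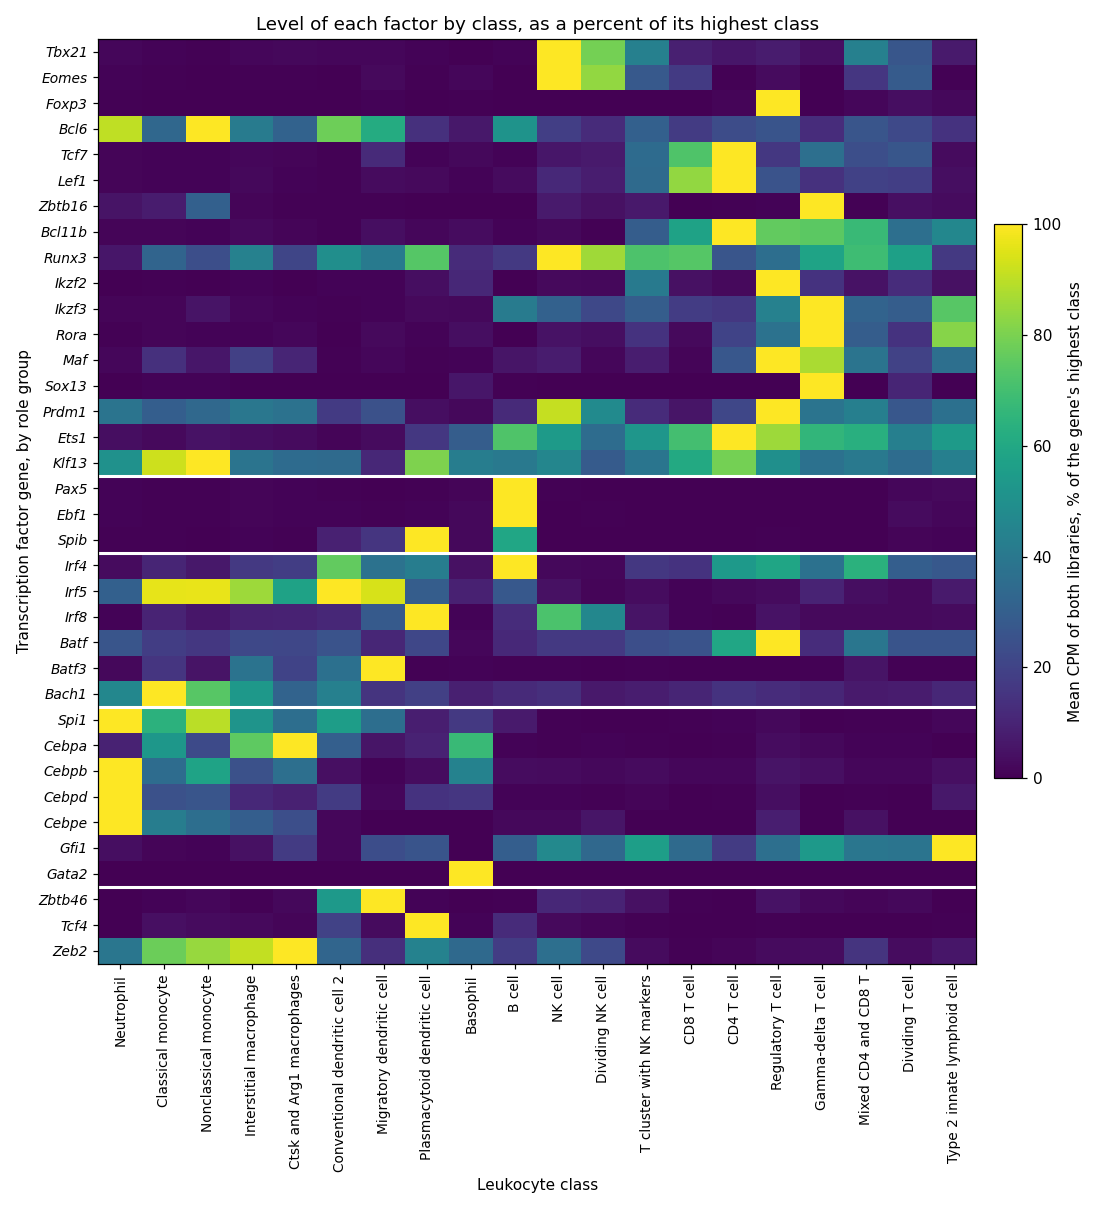
Each row is 1 of the 36 factors, grouped by role with white lines between groups, and each column 1 of the 20 classes. Colour gives the mean CPM of both libraries as a percent of the gene's highest class (0 to 100), so that Foxp3, Pax5, Ebf1 and Gata2 show a single bright cell while Runx3, Klf13 and Bcl6 are spread over many classes.

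Foxp3, the defining factor of regulatory T cells, was close to restricted to one class. It stood at 515 CPM (454 to 583) with isotype and 552 CPM (476 to 636) with agonist in regulatory T-like cells, and that class held 88.7% of its level summed over the 20 classes. The next class, dividing T-like cells, was at 17.1 and 23.9 CPM, and CD4 T-like cells were at 8.72 and 6.83 CPM. In cells thinned to 1000 counts, 44.7% and 38.7% of regulatory T-like cells had a Foxp3 count (63.9% and 69.7% unthinned, median totals 2717 and 2653), against 0.0615% and 0% of B-like cells (0.11% and 0% unthinned, median totals 1675 and 1533.5), a class that should lack it. Ikzf2, which encodes Helios, was also highest there, at 1803 and 1956 CPM, but reached 858 and 697 CPM in the T cluster with NK markers, whose leading genes include Tcrg-C2 and Klra6. Batf, an AP-1 family factor of effector and regulatory T cells, followed at 144 and 134 CPM in regulatory T-like cells and 85.8 and 78.3 CPM in CD4 T-like cells.

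The factors of unstimulated T cells formed a second pattern. Tcf7 encodes TCF-1 and Lef1 its close relative, both needed for T cell development and naive T cell identity. Tcf7 was at 959 CPM (910 to 1010) and 1044 CPM (995 to 1096) in CD4 T-like cells and at 685 and 770 CPM in CD8 T-like cells, while Lef1 was at 609 and 646 CPM and at 522 and 531 CPM in the same classes. Regulatory T-like cells had less of both, with Lef1 at 177 and 146 CPM. Bcl11b, a factor of T cell commitment, was likewise highest in CD4 T-like cells (586 and 589 CPM), but stayed at 446 and 447 CPM in regulatory T-like cells, 444 and 436 CPM in gamma-delta T-like cells and 296 and 247 CPM in type 2 innate lymphoid-like cells. Ets1 was broader still, at 1478 and 1479 CPM in CD4 T-like cells and 1061 and 1078 CPM in B-like cells.

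Gamma-delta T-like cells were the first class of 4 factors with different company. Zbtb16 encodes PLZF, the factor of innate-like T cells, and was at 151 and 133 CPM there. Its second class was not lymphoid: nonclassical monocyte-like cells had 42 and 45.5 CPM. Rora, a retinoid-related orphan receptor gene active in type 17 and type 2 lymphocytes, was at 1234 and 1486 CPM in gamma-delta T-like cells and 1013 and 1213 CPM in type 2 innate lymphoid-like cells, and the intervals of these classes overlapped. Ikzf3, which encodes Aiolos, had the same first and second classes (460 and 430 CPM, then 328 and 331 CPM). Sox13, a factor of gamma-delta T cells, rested on 8 and 9 counts in that class (21.1 and 27.9 CPM), was at 0 in both libraries in 13 classes and entered no comparison of the libraries.

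In NK-like cells the T-box factors were the most abundant relative to other classes. Eomes was at 439 CPM (417 to 461) and 434 CPM (413 to 457), and Tbx21 at 142 and 132 CPM. Dividing NK-like cells had Eomes at 392 CPM (350 to 438) and 340 CPM (298 to 386) and Tbx21 at 122 and 94.7 CPM, so that for both genes the intervals of these classes overlapped with isotype and lay apart with agonist. Eomes fell off to 84.5 and 65.1 CPM in CD8 T-like cells, whereas Runx3, the cytotoxic-lineage factor, was at 407 and 432 CPM in NK-like cells and still at 301 and 317 CPM in CD8 T-like cells. In thinned cells, Eomes counts were found in 32.7% and 32% of NK-like cells (60.3% and 55.6% unthinned, median totals 2702.5 and 2394.5) and in 0.0615% and 0.109% of B-like cells (0.329% and 0.234% unthinned). Prdm1, which encodes Blimp-1, was at 116 and 100 CPM in NK-like cells, next to 144 and 93.4 CPM in regulatory T-like cells.

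The remaining T lineage entries were not led by T cells. Bcl6, the repressor best known from follicular helper T cells and germinal centre B cells, was highest in nonclassical monocyte-like cells (72.3 and 64.2 CPM), with neutrophil-like cells at 71.1 and 52.3 CPM. Klf13 had the flattest profile of the 36, at 505 and 501 CPM in nonclassical monocyte-like cells and 43.8 and 68.5 CPM in its lowest class, migratory dendritic-like cells.

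Pax5 and Ebf1, which maintain B cell identity, were nearly confined to B-like cells. Pax5 was at 678 CPM (651 to 705) and 704 CPM (677 to 730) and Ebf1 at 1373 and 1380 CPM there, and the class held 88.7% and 86.8% of their summed levels. Thinned B-like cells had a Pax5 count in 48.9% and 50.2% of cells, against 0.183% and 0.252% of NK-like cells (67.1% and 66% against 0.535% and 0.646% unthinned). The third B lineage gene, Spib, was higher in plasmacytoid dendritic-like cells (465 and 350 CPM) than in B-like cells (251 and 232 CPM). Irf4, needed for plasma cells, some dendritic cells and activated T cells, had its highest level in B-like cells (117 and 130 CPM), but conventional dendritic cell 2-like cells were next at 107 and 80.9 CPM, with intervals that overlapped with isotype and lay apart with agonist.

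Plasmacytoid dendritic-like cells had the highest level of Tcf4, which encodes the E protein that specifies them, at 3239 CPM (3101 to 3382) and 2886 CPM (2766 to 3010), 5.12 times the second class, conventional dendritic cell 2-like cells (624 and 573 CPM). Irf8, a factor of dendritic cells, monocytes and B cells, was also highest in plasmacytoid cells, at 2717 and 2671 CPM, and its second class was NK-like cells at 1902 and 1960 CPM. In NK-like cells the gene was counted in 81.6% and 81.5% of thinned cells (96.8% and 94.7% unthinned), against 0.628% and 0.82% of CD4 T-like cells (2.58% and 3.12% unthinned, median totals 2135 and 2083). Batf3 and Zbtb46, factors of conventional dendritic cells, were highest in migratory dendritic-like cells, at 492 and 426 CPM and at 60.6 and 67.3 CPM. Batf3 was also at 184 and 167 CPM in interstitial macrophage-like cells and 178 and 162 CPM in conventional dendritic cell 2-like cells. Conventional dendritic cell 1-like cells numbered 43 and 52 and stayed out of the ranking for that reason. Their levels were 1416 and 1254 CPM for Irf8, 358 and 285 CPM for Batf3 and 69.7 and 38.8 CPM for Zbtb46, and for Irf5 (307 and 233 CPM) and Bcl6 (79.2 and 85.8 CPM) they lay above the first ranked class.

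Among the myeloid factors, neutrophil-like cells came first for Spi1, Cebpb, Cebpd and Cebpe. Cebpb was at 4780 CPM (4710 to 4852) and 5693 CPM (5618 to 5768), with nonclassical monocyte-like cells next at 2966 and 3091 CPM and basophil-like cells at 2452 and 2191 CPM. Spi1 had a flatter slope, from 750 and 745 CPM in neutrophil-like cells to 675 and 663 CPM in nonclassical and 490 and 470 CPM in classical monocyte-like cells, and it was at 0 in gamma-delta T-like cells of both libraries. Cebpe, the factor of late granulocyte maturation, was low in neutrophil-like cells, at 13.3 and 11.6 CPM, and stood at 124 CPM (81.2 to 182) and 134 CPM (88.9 to 193) in the 43 and 39 immature neutrophil-like cells. In those cells Cebpb was lower than in neutrophil-like cells, at 2224 and 1954 CPM. Cebpa, which acts early in the myeloid lineage, was instead highest in macrophages: 163 and 124 CPM in the Ctsk and Arg1 macrophage cluster and 116 and 100 CPM in interstitial macrophage-like cells.

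Gata2, a factor of progenitors, mast cells and basophils, was the most restricted of the 36, with 99.5% of its summed level in basophil-like cells. It was at 1729 CPM (1592 to 1875) and 2259 CPM (2117 to 2408) there and at 3.68 CPM or less in every other ranked class. Thinned basophil-like cells had a Gata2 count in 70.7% and 74.5% of cells (91.5% and 92.4% unthinned, median totals 2773 and 2668), and B-like cells in 0% and 0% (0.0549% and 0% unthinned). Bach1, a heme-regulated repressor, peaked in classical monocyte-like cells (364 and 319 CPM). Zeb2 was highest in the Ctsk and Arg1 macrophage cluster (843 and 855 CPM) and lowest in CD8 T-like cells (4.36 and 4.5 CPM). Irf5, a factor of inflammatory macrophages, differed little between conventional dendritic cell 2-like cells (235 and 218 CPM) and both monocyte classes. Gfi1, a repressor used in granulocytes and lymphocytes, was highest in type 2 innate lymphoid-like cells on 16 and 14 counts (64.1 and 55.9 CPM).

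**Figure D2:**
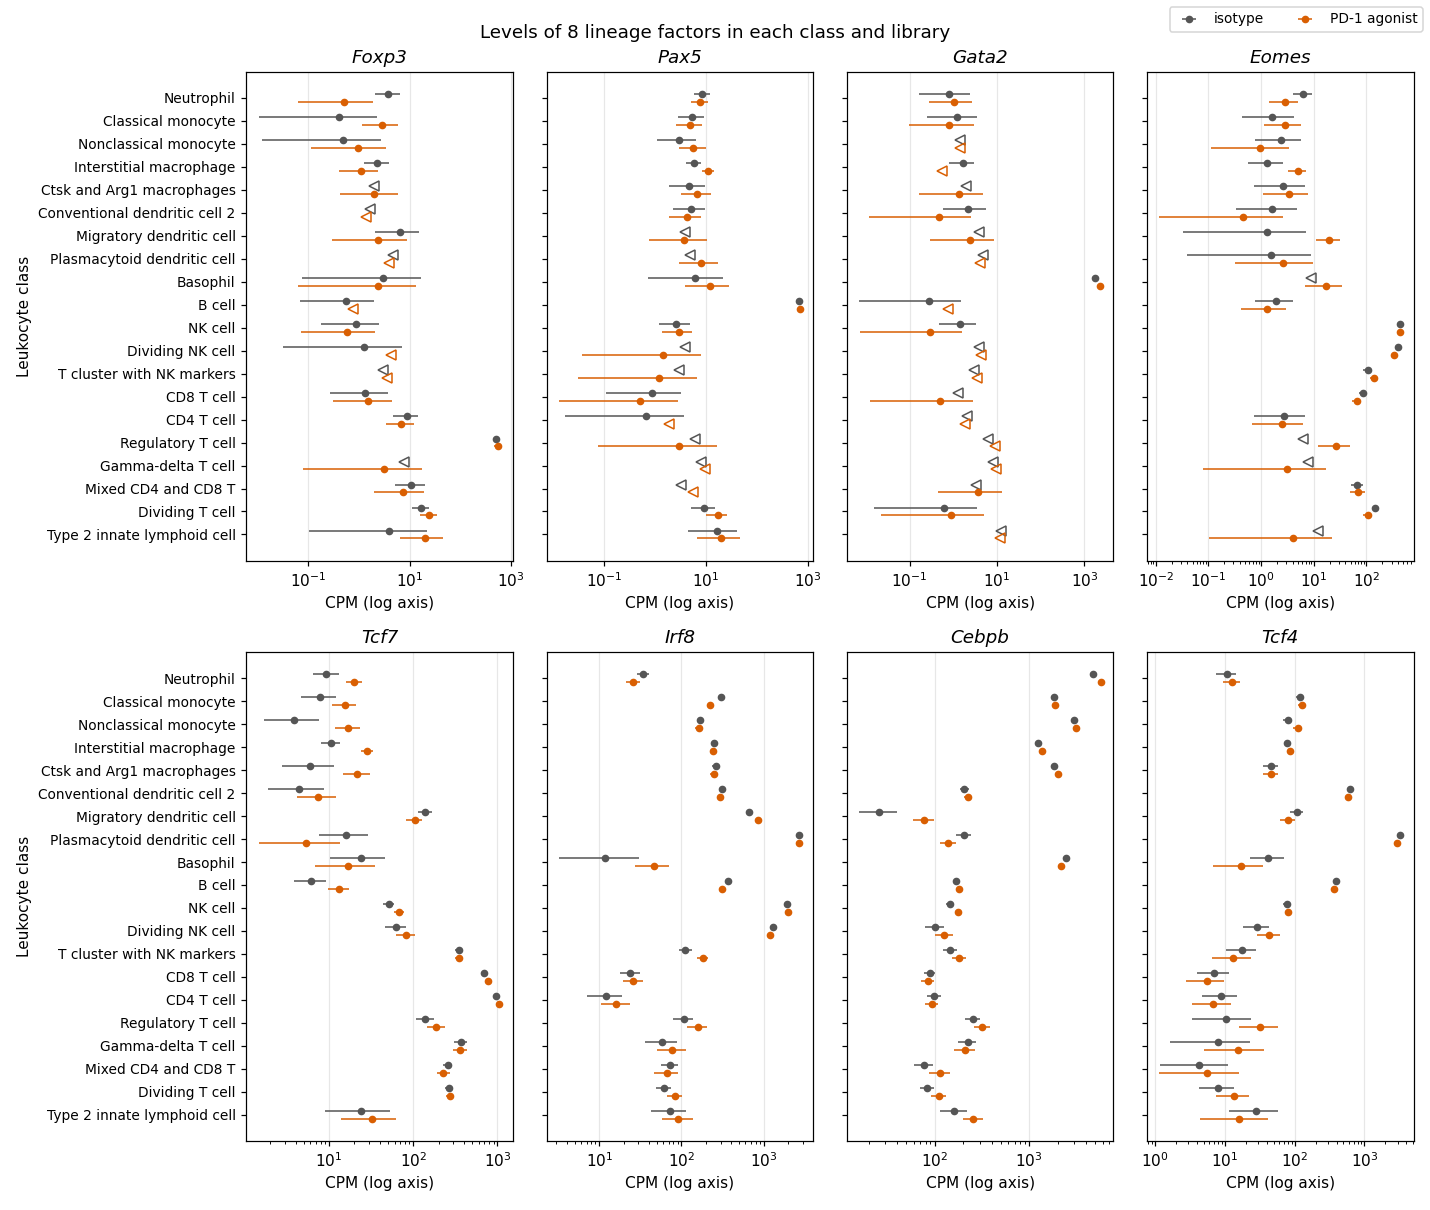
CPM on a log axis of 8 factors in each of the 20 classes, with isotype in grey and PD-1 agonist in orange. Bars are 95% Poisson intervals, and open triangles mark classes with no count, drawn at the value of 3 counts. The 2 libraries lie close together in the classes with high levels, such as Foxp3 at 515 and 552 CPM in regulatory T-like cells, and spread apart where counts are few.

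Factors could be grouped by how alike their profiles were over the 20 classes (Pearson's r of log2(CPM + 1), mean of both libraries). The points share libraries and depth, so r is only a description. Tcf7 and Lef1 (r = 0.94), Pax5 and Ebf1 (0.93), Ikzf3 and Ets1 (0.90), Tbx21 and Eomes (0.87), Spi1 and Irf5 (0.87) and Spib and Tcf4 (0.81) were nearest pairs. The most opposite were Zeb2 and Lef1 (-0.87), and Irf5 and Ets1 (-0.87). Family membership alone did not bring likeness: Irf4 and Irf8 had r = -0.11, and Batf and Batf3 -0.18. Among 12111 genes with at least 200 counts, the 2 most like Pax5 were Ms4a1 and Cd79a (both 0.98), those most like Gata2 were Fcer1a and Mcpt8 (both 0.98), and those most like Foxp3 were Tnfrsf4 (0.86) and Sdf4 (0.81). For Tcf4 they were Slc15a4 (0.90) and Kmo (0.88), for Cebpe Fpr2 (0.97) and Gm44165 (0.95), and for Zbtb46 Gm44135 (0.85) and Adam23 (0.84). Ms4a1, Cd79a, Fcer1a, Mcpt8 and Tnfrsf4 are themselves among the markers that named these classes.

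Promoters were read for members whose levels moved together over the classes. RefSeq starts on GRCm38.p6 were found for 27 of the 36 members, and the 250 bases before each start were searched on both strands for 10 short words. Bcl11b, nearest in profile to Rora (r = 0.84), is shown from the T lineage group, and Ebf1 and Pax5 as the B lineage pair. The first listed windows of Lef1 (of 4) and Foxp3 (of 2) were read too, held 0 matches and are not printed. Capitals mark each match to one of the words.
Bcl11b, chr12:108003415-108003664, minus strand: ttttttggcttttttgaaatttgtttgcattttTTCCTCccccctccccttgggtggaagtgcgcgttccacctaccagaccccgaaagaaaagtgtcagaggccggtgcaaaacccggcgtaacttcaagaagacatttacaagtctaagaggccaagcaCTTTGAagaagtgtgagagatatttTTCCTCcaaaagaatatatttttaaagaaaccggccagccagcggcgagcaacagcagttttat
Ebf1, chr11:44617850-44618099, plus strand, the first of 2 listed starts: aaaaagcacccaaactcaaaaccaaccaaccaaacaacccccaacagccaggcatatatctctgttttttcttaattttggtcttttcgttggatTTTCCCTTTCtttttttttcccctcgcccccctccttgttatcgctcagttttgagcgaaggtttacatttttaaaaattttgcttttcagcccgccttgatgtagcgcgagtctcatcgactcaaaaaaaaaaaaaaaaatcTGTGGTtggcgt
Pax5, chr4:44710695-44710944, minus strand: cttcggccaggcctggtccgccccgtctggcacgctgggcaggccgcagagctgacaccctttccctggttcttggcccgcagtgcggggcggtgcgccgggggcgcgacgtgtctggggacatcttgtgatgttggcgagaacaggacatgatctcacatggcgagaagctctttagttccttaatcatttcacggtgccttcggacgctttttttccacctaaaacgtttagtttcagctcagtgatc
In Bcl11b the capitals are the PU.1 word GAGGAA on the opposite strand, 217 and 64 bases before the start, and the TCF and LEF word CTTTGA, 89 bases before it. In Ebf1 they are the IRF word (GAAA, any 2 bases, GAAA) on the opposite strand (155 bases before) and the RUNX word TGTGGT (12 bases before), and Pax5 has none of the 10 words. GAGGAA was found for 9 of the 27 members and in 23.3% of all 32851 promoter windows of the same length, CTTTGA for 3 members (Bcl11b, Bcl6, Lef1) and in 13.8%, TGTGGT for 3 and in 14%, and the IRF word for 2 (Ebf1, Eomes) and in 2.98%. The C/EBP word TTGCNNAA was found for 4 members (9.56% of all windows), the AP-1 word TGANTCA for 3 (6.75%) and the GATA word AGATAA for 2 (9.99%). The EBF word (TCCC and GGGA with any 2 bases between), the T-box word AGGTGTGA and the NFKB word (GGGA and TTCC with any 2 bases between) were found for 0 members (0.779%, 1.12% and 1.21% of all windows). Several members have more than 1 listed start, and a match in any of them was counted, so the counts by member and the shares of windows are unlike measures. Counted by window, GAGGAA was in 12 of the 41 windows of the members. Each other word was in as many of these windows as members. A match is a string of letters and no evidence of binding.

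The comparison of agonist with isotype asks how treatment with the agonist goes along with the factors' levels in each class. Of 720 pairs of a factor and a class, 358 had at least 50 counts over both libraries, and 35 of the 36 factors entered in at least 1 class. A pair was called past the fold where the log2 ratio of agonist over isotype was 0.5 or more either way. This held for 52 pairs (14.5%), of 24 factors, where 14.0% of all 120740 pairs of a gene and a class did so. Of the 52, 37 were higher with agonist (10.3% of the pairs, against 8.08% of all pairs) and 15 lower (4.19%, against 5.88%). Pooled over all depths these shares were close, but they parted in both directions when split by counts, as given next. For 41 of the 52 the counting interval excluded 0, and for 11 it did not. No share over all genes stands beside this count, nor beside those for left-out tables and first classes below. Such counts describe the listed pairs and do not set the factors apart from other genes. Leaving out each of the 6 tables in turn (replicates 1 to 3 of a treatment, as labelled), 27 of the 52 pairs stayed past the fold each time, and 25 fell within it without at least 1 table, as given below for the pairs described.

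The calls lay where counts were few. Among pairs with 50 to 100 counts, 32.9% of the factors' pairs and 23.3% of all pairs were past the fold. From 100 to 200 counts the shares were 23.5% (19 of 81) and 12.5%, and from 200 to 500 counts 7.23% and 7.55%. Among pairs with 500 counts or more they were 3.23% (4 of 124) and 9.07%. With at least 200 counts, 10 pairs remained. Over all kept cells together, 1 of 35 factors was past the fold (2.86%, against 10.2% of 15126 genes): Gata2, at 16.7 and 26.7 CPM (log2 ratio 0.68, 0.53 to 0.83), where basophil-like cells numbered 117 and 145. In that sum alone, more cells of a type and more RNA of the gene per cell cannot be told apart. Basophil-like cells were 1.14% and 1.29% of the kept cells, and within them the Gata2 ratio was 0.39 (0.24 to 0.54).

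Of the 36 factors, 34 had enough counts in their own first class, and 1 of them was past the fold there, Prdm1 in regulatory T-like cells, described below. The ratios of the other 33 ran from -0.41 for Spib in plasmacytoid cells (-0.66 to -0.17) to 0.39 for Gata2, and for 9 of the 34 the counting interval excluded 0, among them Cebpa in the Ctsk and Arg1 macrophage cluster at -0.39 (-0.68 to -0.11). The log2 ratio was 0.10 (-0.18 to 0.38) for Foxp3 in regulatory T-like cells, 0.05 (-0.02 to 0.13) for Pax5 and 0.01 (-0.05 to 0.06) for Ebf1 in B-like cells, and -0.01 (-0.12 to 0.09) for Eomes and -0.10 (-0.29 to 0.09) for Tbx21 in NK-like cells. Tcf7 was at 0.12 (0.02 to 0.23) and Lef1 at 0.09 (-0.04 to 0.22) in CD4 T-like cells, Tcf4 at -0.17 (-0.25 to -0.08) in plasmacytoid cells, and Cebpb at 0.25 (0.22 to 0.28) in neutrophil-like cells. None of the 15 factors tested in CD4 T-like cells was past the fold (11.9% of all genes were), nor any of 19 in the Ctsk and Arg1 macrophage cluster (13.6%), and 1 of 24 was in NK-like cells (10.8%), Zbtb16 on 29 and 44 counts, with a ratio of 0.61 that fell to 0.49 without agonist replicate 2.

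**Figure D3:**
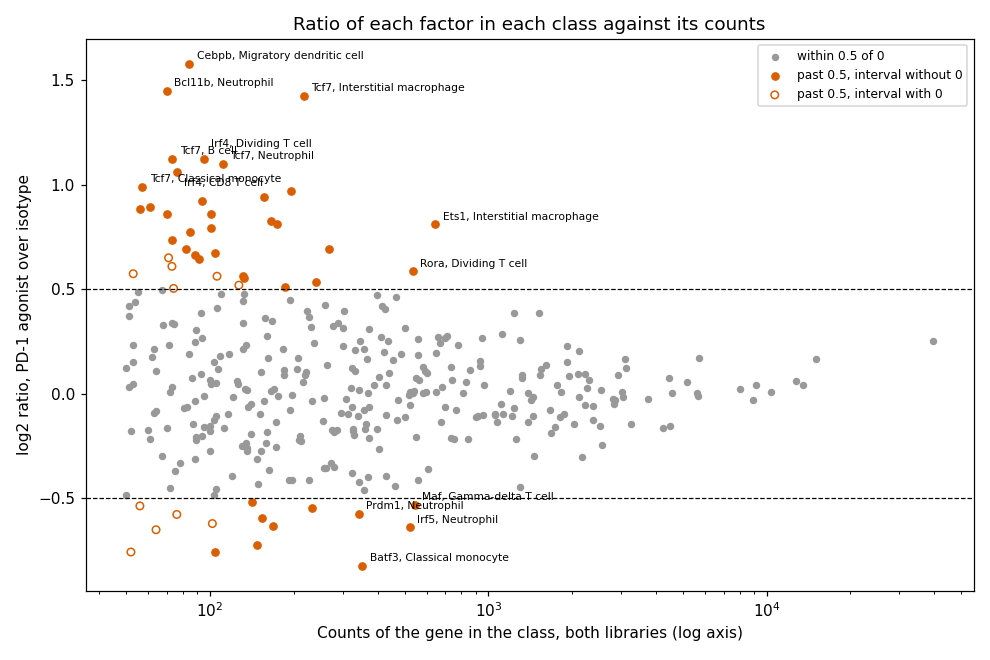
Log2 ratio of PD-1 agonist over isotype for the 358 pairs of a factor and a class, against the counts of the pair in both libraries on a log axis. Dashed lines mark 0.5 either way, filled orange points are past it with a counting interval that excludes 0 (41), open ones past it with an interval that holds 0 (11), and the spread narrows as counts grow.

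Several pairs past the fold joined a T and NK lineage factor, or Irf4, with a T or NK class. Some of them follow here, and the others are given with their classes. Maf, a factor of interleukin-10 and interleukin-17 producing T cells, was lower with agonist in gamma-delta T-like cells, at 903 CPM (810 to 1004) and 625 CPM (542 to 718), a log2 ratio of -0.53 (-0.79 to -0.28), where 17.8% of all genes were past the fold and 1 of 12 factors. In regulatory T-like cells the Maf ratio was 0.28 (0.06 to 0.49), and that difference between classes was not tested. Without agonist replicate 1 the ratio in gamma-delta T-like cells was -0.34, and with doublets kept -0.49. For values with doublets kept, here and below, all cells were clustered and named anew, so the cells of a class changed as well. The 13 gamma-delta T cell markers were summed at 1994 and 1656 CPM in the same class, 2 of 13 higher with agonist, and their part in the Maf ratio was not tested. Prdm1 was lower in regulatory T-like cells (144 and 93.4 CPM, -0.62, -1.27 to 0.00), where 2 of 16 factors and 17.2% of all genes were past the fold, and its interval reached 0. Irf4 was at 11.8 and 24.5 CPM in CD8 T-like cells (1.06, 0.35 to 1.79), on 27 and 49 counts, with 3 of 19 factors and 12.1% of all genes past the fold there. The class joins a cluster with 55.4% of its cells for isotype and 65.8% for agonist and a second one, and Irf4 was at 1.10 and 0.91 within them. Ikzf3 was lower in dividing NK-like cells, at 121 and 73.2 CPM (-0.72, -1.24 to -0.22), where 3 of 15 factors and 16.0% of all genes were past the fold, and the ratio was -0.41 without agonist replicate 1.

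Neutrophil-like cells had 8 of 25 factors past the fold (32.0%, against 15.7% of all genes), 4 in each direction, where 8.18% of all genes were higher and 7.52% lower. Irf5 was lower with agonist, at 84.7 and 54.4 CPM (-0.64, -0.90 to -0.38), as were Prdm1, at 54.5 and 36.6 CPM (-0.57, -0.89 to -0.26), and Cebpa, at 17.4 and 10.3 CPM (-0.76, -1.37 to -0.17). Rora was lower on 32 and 20 counts (-0.76), within counting error. Without isotype replicate 2 the ratios of Cebpa and Rora were -0.49 and -0.42, and without isotype replicate 3 that of Prdm1 was -0.49. The class joins a cluster led by Retnlg, with 56.3% of its cells for isotype and 68.5% for agonist, and a cluster led by Rab15 and Il1a with the rest. Taken within these clusters, an alternative chosen after seeing the data, Irf5 was at -0.81 (-1.28 to -0.35) and -0.30 (-0.62 to 0.01), Prdm1 at -0.40 (-1.24 to 0.45) and -0.23 (-0.58 to 0.12) and Cebpa at -0.80 (-1.78 to 0.17) and -0.55 (-1.37 to 0.22). In the same cells the 13 interstitial macrophage markers were summed at 697 and 622 CPM (5 of 13 higher), and the 11 nonclassical monocyte markers at 1080 and 977 CPM (1 of 11 higher), and their part in these ratios was not tested. Of both lists, Folr2 alone was at 0, with isotype. The 12 neutrophil markers were at 108931 and 132291 CPM, 10 of 12 higher with agonist. The 4 higher factors were Bcl11b, Tcf7, Lef1 and Zbtb16, genes of T cells at 4.9 to 19.8 CPM, described next with the other classes where such genes were past the fold.

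T and B lineage factors at low levels in cells of other lineages made up much of the higher calls. In interstitial macrophage-like cells 6 of 26 factors were past the fold, all higher (23.1%, against 7.47% of all genes higher). Tcf7 was at 10.5 and 28.1 CPM (1.43, 1.00 to 1.87), Lef1 at 9.49 and 18.2 CPM (0.94), Ets1 at 41.2 and 72.3 CPM (0.81), Rora at 11.1 and 19.5 CPM (0.81), Pax5 at 5.72 and 10.9 CPM (0.92) and Ebf1 at 13.4 and 19.1 CPM (0.51). These levels are small beside those in the lymphocyte classes, where Tcf7 reached 959 and 1044 CPM. In the same macrophages the 11 T cell markers were summed at 128 and 198 CPM (log2 0.63, 11 of 11 higher), and the 11 B cell markers at 160 and 217 CPM (0.44, 11 of 11 higher), with no marker of either list at 0. Their part in the factors' ratios was not tested. With the called doublets kept, the ratios in this class were 0.57 for Tcf7, 0.06 for Lef1, 0.31 for Ets1 and 0.02 for Rora, against 0.63 for Pax5 and 0.69 for Ebf1. Ebf1 was at 0.36 without isotype replicate 3.

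Outside the T and NK classes, Tcf7, Lef1, Ets1 or Bcl11b were also higher past the fold, at low levels, in 3 other classes. Prdm1, Ikzf2 and Klf13 of the same role group were higher in dendritic classes, as given below. In classical monocyte-like cells Tcf7 was at 7.72 and 15.3 CPM (0.99, 0.16 to 1.87) and Ets1 at 26.8 and 52.5 CPM (0.97, 0.53 to 1.42), with 4 of 22 factors and 12.9% of all genes past the fold, and the T cell markers were at 71.1 and 132 CPM (0.89, 10 of 11 higher). With doublets kept, Ets1 was at 0.09 and Tcf7 at 0.73. In neutrophil-like cells Bcl11b was at 4.9 and 13.4 CPM (1.45, 0.65 to 2.31), on 18 and 52 counts, and Tcf7 at 9.26 and 19.8 CPM (1.10, 0.50 to 1.73), while the T cell markers were at 121 and 138 CPM (0.19, 8 of 11 higher). Within the Retnlg cluster and the other one, Bcl11b was at 1.04 and 1.88 and Tcf7 at 0.49 and 1.69. With doublets kept the ratios of the class were 0.72 and 0.51, and that of Lef1 turned from 0.86 to -0.81. In B-like cells Tcf7 was at 6.05 and 13.2 CPM (1.12, 0.38 to 1.92) and Lef1 at 14 and 20.7 CPM (0.56, 0.04 to 1.10), as 2 of 22 factors past the fold (10.1% of all genes), and the T cell markers at 50.9 and 73.7 CPM (0.54, 9 of 11 higher). With doublets kept they were at 0.26 and 0.19, and Lef1 was also at 0.19 without agonist replicate 1. In none of these classes was a T cell marker at 0, and the part of the markers' RNA was not tested.

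**Figure D4:**
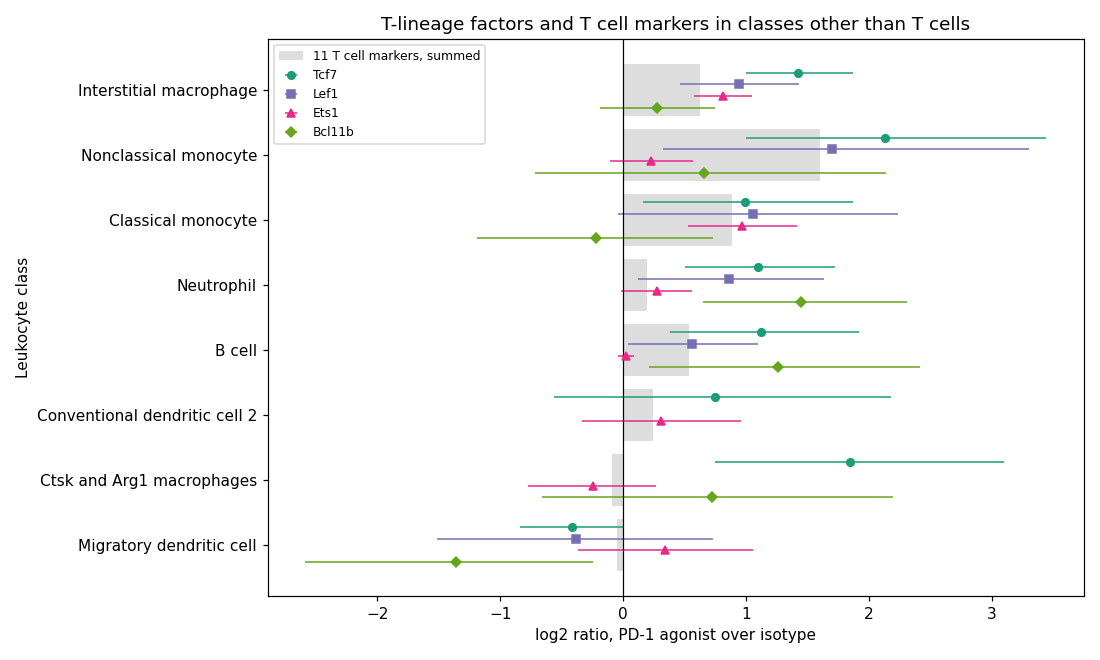
Log2 ratio of PD-1 agonist over isotype in 8 classes other than T cells, for the summed 11 T cell markers (grey bars) and for Tcf7, Lef1, Ets1 and Bcl11b (points with 95% counting intervals, drawn where a pair has at least 20 counts). In interstitial macrophage-like cells the markers are at 0.63 and Tcf7, Lef1 and Ets1 at 1.43, 0.94 and 0.81, and in migratory dendritic-like cells the markers are at -0.05.

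Classical monocyte-like cells also had the clearest lower pair. Batf3 was at 91.5 CPM (79.9 to 104) with isotype and 51.7 CPM (43.1 to 61.5) with agonist (-0.82, -1.15 to -0.50), on 225 and 128 counts. A Batf3 count was found in 7.26% and 5.92% of thinned cells (27.4% and 18.4% unthinned, median totals 5809 and 5336), and the ratio stayed between -0.98 and -0.51 under every alternative run. The 10 markers of conventional dendritic cell 2-like cells were at 226 and 159 CPM in the same monocytes (-0.51, 1 of 10 higher, 0 markers at 0), and their part was not tested. Batf3 in the dendritic classes was at -0.21 (-0.42 to 0.00) in migratory dendritic-like cells.

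Dividing T-like cells, 221 and 161 in number, had 6 of 22 factors past the fold (27.3%, against 15.4% of all genes), 5 of them higher, as were 8.54% of all genes. Rora was at 160 and 241 CPM (0.59, 0.34 to 0.84), Irf4 at 23.2 and 50.4 CPM (1.12, 0.51 to 1.75), Prdm1 at 23.8 and 40.7 CPM (0.78), Ebf1 at 28 and 48.7 CPM (0.80) and Zeb2 at 20.7 and 34.5 CPM (0.74). Bach1, at 31.7 and 21.2 CPM, was lower within counting error. Without agonist replicate 1 the Rora ratio was 0.34 and that of Prdm1 0.40, and without agonist replicate 3 that of Zeb2 was 0.24 and that of Bach1 -0.24. With doublets kept, Rora was at 0.47, Prdm1 at 0.47, Ebf1 at 0.38 and Zeb2 at 0.38, within the fold, and Irf4 at 1.15. Bach1 turned to 0.016 with doublets kept, and was at -0.48 without isotype replicate 1 and -0.22 without isotype replicate 2. A small cluster with 15 and 25 of these cells made up 6.79% of the class with isotype and 15.5% with agonist, and it held 45 of the 46 and 51 of the 55 Ebf1 counts. Within it Ebf1 was at 494 and 374 CPM (-0.40, -1.01 to 0.21), Rora at -0.41 and Irf4 at -0.47, both intervals holding 0, while in the larger cluster Rora was at 0.65, Irf4 at 1.42 and Prdm1 at 0.93. Markers of several lymphocyte types also differed in this class: the 13 gamma-delta T cell markers were at 229 and 481 CPM (13 of 13 higher), the 11 B cell markers at 313 and 594 CPM (10 of 11 higher) and the 12 NK cell markers at 819 and 1246 CPM (8 of 12 higher), while the 11 T cell markers were at 4368 and 4172 CPM (2 of 11 higher). Their part in the factors' ratios was not tested. In the T cluster with NK markers 4 of 17 factors were past the fold, all higher (23.5%, against 8.69% of all genes higher). They were Irf8, at 112 and 181 CPM (0.69, 0.33 to 1.06), Ikzf3, at 107 and 155 CPM (0.53), Maf, at 57 and 81.7 CPM (0.52, within counting error), and Gfi1, at 23.6 and 43.8 CPM (0.89). Ikzf3 was at 0.33 without isotype replicate 2, and Maf at 0.28, 0.50 and 0.45 without agonist replicates 1, 2 and 3. With doublets kept, Irf8 was at 0.18, Ikzf3 at 0.39 and Gfi1 at 0.33. The 12 NK cell markers stood at 1632 and 2215 CPM in the same cluster (10 of 12 higher), and their part was not tested.

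The largest ratio of all was that of Cebpb in migratory dendritic-like cells, the class where Cebpb is lowest. It was at 25.8 and 77 CPM (1.58, 0.83 to 2.38), on 20 and 64 counts, with 2 of 17 factors and 18.1% of all genes past the fold. In that class the 12 neutrophil markers were at 791 and 630 CPM (6 of 12 higher) and the 10 classical monocyte markers at 95.4 and 194 CPM (7 of 10 higher; F13a1 and Mgst1 at 0 in both libraries), and their part was not tested. Klf13 was the other pair there, at 43.8 and 68.5 CPM (0.65, 0.01 to 1.30), and at 0.33 without isotype replicate 1.

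The remaining calls were spread thinly: Ikzf2 in basophil-like cells (251 and 166 CPM, -0.59; 1 of 8 factors, 21.1% of all genes), Ikzf2 and Cebpb in plasmacytoid cells (0.86 and -0.55; 2 of 13, 15.2%), and Cebpb in type 2 innate lymphoid-like cells (0.67; 1 of 7, 26.6%). Lef1, Prdm1 and Cebpb were higher in the mixed CD4 and CD8 T cluster (0.82, 0.65 and 0.55; 3 of 18, 16.8%), Prdm1 lower in nonclassical monocyte-like cells (-0.63; 1 of 20, 14.1%), and Prdm1 higher and Batf lower in conventional dendritic cell 2-like cells (0.69 and -0.52; 2 of 21, 13.7%). In CD8 T-like cells Gfi1 was higher (0.66) and Maf lower (-0.54, within counting error), but within the larger and the smaller cluster of that class Gfi1 was at -0.21 and 1.60 and Maf at 0.48 and -2.04. Irf4 was lower in classical monocyte-like cells (-0.65), Lef1 and Tcf4 higher in dividing NK-like cells (0.50 and 0.57), and Irf8 higher in regulatory T-like cells (0.56), all within counting error. Of these remaining pairs, leaving out 1 table took these within the fold: Ikzf2 in basophil-like cells to -0.43, Cebpb in plasmacytoid cells to -0.42 and in the mixed cluster to 0.38, Batf to -0.25, Gfi1 to 0.41, Maf to -0.16, Irf4 to -0.13, Lef1 in dividing NK-like cells to 0.29, Tcf4 to 0.38 and Irf8 to 0.32. Tcf4 in dividing NK-like cells was at 1.27 without isotype replicate 1. With doublets kept, the sign turned for Prdm1 in the mixed cluster (-0.64), for Ikzf2 and Cebpb in plasmacytoid cells (-0.27 and 0.37) and for Maf in CD8 T-like cells (0.10), and Prdm1 in conventional dendritic cell 2-like cells was at 0.28. For Cebpb in type 2 innate lymphoid-like cells 1 agonist cell held 19 of 64 counts, and the ratio was 0.44 without the cell with the most counts in each library. Nonclassical monocyte-like cells join a cluster with 51.8% of their cells for isotype and 67.6% for agonist and a second one, and Prdm1 was at -0.22 (-0.97 to 0.55) and -0.84 (-1.52 to -0.21) within them.

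Genes linked to the factors were read from lists by program, in the class each program belongs to. That the factors act on these genes here was not tested. The lists overlap with the markers that named the classes. This holds for every gene of the Gata2 list and of the Irf8 and Batf3 list. It also holds for most genes of the Foxp3 list and of the Pax5 and Ebf1 list. Of the 10 genes of the Tcf7 and Lef1 program in CD4 T-like cells, 0 were past the fold (11.9% of all genes) and 8 were higher (median log2 0.17, against 0.00 over all genes), led by Dapl1 (114 and 157 CPM, 0.46) and Bach2 (172 and 219 CPM, 0.35). All 10 genes of the T-bet and Eomes program were tested in NK-like cells, 0 past the fold (10.8% of all genes) and 9 lower (median -0.13, against 0.00), with Klrg1, an inhibitory lectin receptor, at -0.21 and Il2rb, an interleukin-2 receptor chain, at 0.07. The Foxp3 program in regulatory T-like cells had 0 higher and 1 lower past the fold of 10, where 17.2% of all genes were (median 0.12, against 0.01), the folate receptor family gene Izumo1r at 398 and 248 CPM (-0.68, -1.07 to -0.31), and Ctla4, an inhibitory receptor gene, was at 1747 and 2257 CPM (0.37, 0.23 to 0.51). In B-like cells 1 of 10 genes of the Pax5 and Ebf1 program was past the fold, against 10.1% of all genes (median 0.02), Cd79a, a chain of the B cell receptor complex, at 756 and 1249 CPM (0.72, 0.66 to 0.79).

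The C/EBP granule program in neutrophil-like cells had 1 of 8 tested genes higher and 2 lower, where 8.18% of all genes were higher and 7.52% lower (median 0.24, against 0.00). Ngp, a secondary granule protein gene, was at 25.9 and 38.1 CPM (0.56), Ltf, which encodes lactoferrin, at 21.2 and 14.2 CPM (-0.58), and Chil3, a chitinase-like protein gene, at 165 and 110 CPM (-0.58). In conventional dendritic cell 1-like cells all 6 tested genes of the Irf8 and Batf3 program were lower with agonist, 2 past the fold where 21.8% of all genes were (median -0.27, against 0.01), led by the integrin gene Itgae (304 and 105 CPM, -1.53, -2.11 to -0.98) and the chemokine receptor gene Xcr1 (266 and 133 CPM, log2 interval -1.54 to -0.47), in 43 and 52 cells. The Gata2 program in basophil-like cells had 1 of 8 past the fold, against 21.1% of all genes (median 0.08), the cytokine gene Il4 at 1434 and 2155 CPM (0.59, 0.43 to 0.75), and the Tcf4 and Spib program 1 of 8 in plasmacytoid cells, against 15.2% (median 0.05), Runx2, another factor of these cells, at 1162 and 820 CPM (-0.50). None of 10 Spi1 program genes in classical monocyte-like cells (median -0.08, 12.9% of all genes past the fold) and 0 of 5 tested Sox13 and Maf program genes in gamma-delta T-like cells (median -0.09, 17.8%) was past the fold. The 56 measured lineage factor genes outside the 36 gave 705 tested pairs over the 20 classes, of which 37 were higher past the fold (5.25%, against 8.08% of all pairs) and 29 lower (4.11%, against 5.88%). In interstitial macrophage-like cells 6 of 48 were higher (7.47% of all genes) and 1 lower, and in neutrophil-like cells 1 of 43 was higher (8.18%) and 6 lower (7.52%).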

How the data were processed

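The 36 genes, the marker genes and the program lists were chosen with earlier results of these data known. The deposited tables hold, per the file headers, 1 record per cell with estimated counts per gene (expected counts, which need not be whole), the cell's total, its number of genes and its mitochondrial percent, as the authors computed them. The submitters' processing notes name Partek and mm10, with no aligner or counter (not given in the sources used here). Joined records were split and blank lines skipped. Where a barcode occurred in several tables of a treatment, the record with the highest total count was kept. Cells inside the authors' own filter (500 to 4000 genes in the deposited records) numbered 11106 and 12216. Scrublet in scanpy 1.11.5 (expected rate 0.1, score 0.25) called 7.24% and 7.83% as doublets, which were removed. Clusters came from Leiden at resolution 1 on 2000 variable genes without the 36 factors, 30 components and 15 neighbours. They were named from at least 3 standing-out markers by a rule set with the clusters in view, and 62 and 62 cells stayed unnamed. Classes with under 50 cells in a library were left out of the rankings and of the calls on the 36 factors. The Irf8 and Batf3 program was still read in 1 such class. Another program list is not reported here. Summed counts were rounded, and edgeR 4.0.16 in R 4.3.3 gave TMM factors only. Levels have exact Poisson intervals, ratios exact Clopper-Pearson intervals, at 95%. A test of 3 tables against 3 had been planned for separate samples and was not run, since the tables share cells. On simulated sums, 95.9% of intervals held the truth in B-like cells (9434 genes). Exact intervals reach their stated 95% wherever counts follow the counting model, so this share checks the calculation only. With 1 library per treatment this does not gauge the spread between mice or between libraries. All 36 members are accounted for: levels are given for the leading members of each role and for pairs past the fold, other lists name the highest and lowest ratios in their class, and nearest patterns need 200 counts.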

Additional observations from a re-analysis of the deposited data

Results flagged for a closer look

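Among the pairs past the fold, 4 factors had counting intervals on opposite sides of 0 in different classes, so that the agonist library was higher in one class and lower in another. None of these differences between classes was tested, and each class is 1 library per treatment. The share of all genes with such opposite intervals is not given, so the count of 4 does not set the factors apart from other genes. The log2 ratio of Cebpb was 1.58 in migratory dendritic-like cells, 0.67 in type 2 innate lymphoid-like cells and 0.55 in the mixed CD4 and CD8 T cluster, and -0.55 in plasmacytoid dendritic-like cells. That of Ikzf2 was 0.86 in plasmacytoid dendritic-like cells and -0.59 in basophil-like cells. Ikzf3 was at 0.53 in the T cluster with NK markers and at -0.72 in dividing NK-like cells. Prdm1 was at 0.78 in dividing T-like cells and 0.69 in conventional dendritic cell 2-like cells, and at -0.57 in neutrophil-like cells and -0.63 in nonclassical monocyte-like cells. Without the cell with the most counts in each library, Cebpb was at 0.44 in type 2 innate lymphoid-like cells, where 1 agonist cell held 19 of its 64 counts, and at -0.48 in plasmacytoid cells. With doublets kept, the plasmacytoid values turned over, to 0.37 for Cebpb and -0.27 for Ikzf2. Leaving out 1 table took Cebpb to 0.38 in the mixed cluster and -0.42 in plasmacytoid cells, and Ikzf2 to -0.43 in basophil-like cells. It took Ikzf3 to 0.33 and -0.41, and Prdm1 to 0.40 in dividing T-like cells and -0.49 in neutrophil-like cells. The other ratios named here stayed past the fold without any 1 table. Within the clusters that make up neutrophil-like cells, the Prdm1 intervals held 0.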

How the results depend on the processing

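The 34 factors with a shared first class became 31 to 34 without any 1 table and 32 when classes of at least 30 cells entered, an alternative chosen after seeing the data. The 52 pairs past the fold became 48 to 63 without any 1 table, and 47 to 58 under the other scalings, clusterings, doublet and record choices, where they were counted anew. 3 settings moved that count by more than 1.5 times: 252 pairs with no filter on low counts, 7 at a log2 fold of 1, and 10 with at least 200 counts, a minimum added after seeing the data. Among the 52 ratios, 46 kept their sign under every alternative, and 36 also stayed within their counting interval. The sign turned with doublets kept for Bach1 in dividing T-like cells (0.016), Cebpb and Ikzf2 in plasmacytoid cells (0.37 and -0.27), Lef1 in neutrophil-like cells (-0.81), Maf in CD8 T-like cells (0.10) and Prdm1 in the mixed CD4 and CD8 T cluster (-0.64), and at resolution 2 for Maf in CD8 T-like cells (0.54). The cause was not tested. With doublets kept, 27 of the 52 pairs were no longer past the fold and 25 were. That setting also clustered and named the cells anew. Dividing T-like cells then numbered 183 and 149 instead of 221 and 161, and the mixed CD4 and CD8 T cluster 355 and 299 instead of 236 and 157. The part of the doublets and that of the new classes cannot be told apart. No paired analysis was possible because the tables of a treatment share cells, so their numbers name no separate samples. Pairs with few counts limit the reading: below 50 counts no ratio was called.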
